A study of Mus musculus with 6 samples.

Results

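Stromal fibroblast cultures made from the mouse mammary gland contained transcripts of macrophages and other myeloid cells, and 35 genes that mark those cells are described here, out of 23337 gene rows in the count tables. The 35 were chosen by name: 34 were found under the listed symbol, and Spi1 was found under its older symbol Sfpi1. RNA was sequenced from 6 culture samples, 3 from Sharpin-cpdm mice (cpdm/cpdm, Sharpin deficient, here also called the mutant) and 3 from wild-type mice (wt/wt). All mice were of the C57BL/KaLawRij strain and 7 weeks old. Each sample pooled the mammary glands of 3 mice, and the labels do not say how the cultures were set up. The glands were digested with collagenase, cells were separated by differential centrifugation and grown in serum-containing medium at passage 0 until confluent, and floating cells were removed, so the cells were enriched by attachment and not sorted by a surface marker. The mutation is present in every cell of the Sharpin-cpdm animals, and both groups carry no other listed allele or treatment. The libraries of each group are numbered 1 to 3, and libraries of the same number are called a pair.

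Macrophages arise from the myeloid lineage under the transcription factor PU.1, the product of Spi1, and live on signals through the receptor CSF1R, whose ligand CSF1 is made by stromal cells. They take up dying cells and antibody-coated particles through scavenger and Fc receptors, digest them in lysosomes rich in lysozyme and cathepsins, and secrete the C1q subunits that start the classical complement pathway. In the growing mammary gland macrophages gather around the ends of the ducts and take part in duct growth and in the arrangement of collagen. SHARPIN is part of the enzyme complex that builds linear ubiquitin chains, and mice without it develop chronic inflammation of the skin and other organs.

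Depth was even, at 13570649 to 15656196 counts assigned to genes per library. Sharpin itself stood at 9.13 to 10.5 CPM, its count scaled to 1000000 gene counts in the library, in the Sharpin-cpdm libraries and at 24.5 to 31.2 CPM in the wild-type libraries. The culture label was borne out by 12 fibroblast markers, collagens and Pdgfra among them, which summed to between 71139 and 91002 CPM in each library, beside 158 to 789 CPM for all 35 macrophage and myeloid genes. In RNA from a whole culture, fewer cells of a type and less RNA per cell cannot be told apart.

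The promoters of C1qb, Cd53, Itgam and Ctss are shown because these genes differ in how their levels varied between the pairs, as described further on. Each run is the 250 bases before the RefSeq start on the gene's own strand (GRCm38.p6), and capitals mark the PU box GAGGAA or, for a box on the other strand, TTCCTC, a short core motif that PU.1 can bind.
C1qb, chr4:136886201-136886450, minus strand: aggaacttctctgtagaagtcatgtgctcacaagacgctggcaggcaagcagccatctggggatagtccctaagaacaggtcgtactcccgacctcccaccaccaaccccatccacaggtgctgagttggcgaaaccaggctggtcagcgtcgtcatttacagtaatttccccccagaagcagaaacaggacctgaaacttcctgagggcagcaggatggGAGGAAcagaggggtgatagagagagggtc
Cd53, chr3:106790150-106790399, minus strand: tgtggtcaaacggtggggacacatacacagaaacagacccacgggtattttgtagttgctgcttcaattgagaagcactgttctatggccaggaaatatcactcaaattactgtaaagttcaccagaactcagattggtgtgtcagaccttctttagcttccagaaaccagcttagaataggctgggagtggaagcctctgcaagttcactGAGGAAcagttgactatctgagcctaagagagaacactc
Itgam, chr7:128062390-128062639, plus strand: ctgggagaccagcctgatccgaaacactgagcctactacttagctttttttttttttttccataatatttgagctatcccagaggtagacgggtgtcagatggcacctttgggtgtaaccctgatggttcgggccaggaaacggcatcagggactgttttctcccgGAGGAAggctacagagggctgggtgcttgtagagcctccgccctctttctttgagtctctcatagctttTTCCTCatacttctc
Ctss, chr3:95526536-95526785, plus strand: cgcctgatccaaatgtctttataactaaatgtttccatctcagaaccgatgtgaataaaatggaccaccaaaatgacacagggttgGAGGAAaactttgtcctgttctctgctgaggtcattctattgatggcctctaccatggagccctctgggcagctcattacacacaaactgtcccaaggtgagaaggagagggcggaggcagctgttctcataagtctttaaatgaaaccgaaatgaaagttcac

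The PU box was searched on both strands of these windows, where its copies cannot overlap. A mean of at least 5 CPM was reached by 19 of the 35 genes, and the promoters of 13 of them were analysed here. Of these 13 genes 9 held at least 1 PU box, beside 25.9% of the 27025 genes in the RefSeq set, and 23.3% of its 32851 promoters held one. Lyz2, Mpeg1, Lcp1 and Fcer1g held none. Over all levels, 13 of the 26 genes with an analysed promoter held a box. A match describes letters in this window and is not evidence of binding.

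The lysosomal enzyme genes Lyz2 and Ctss had the highest levels per exonic length among the 35. Lyz2, which encodes the lysozyme of macrophages, had 102, 263 and 158 CPM in the mutant and 46.3, 295 and 118 CPM in the wild type, in the order of libraries 1, 2 and 3 that is kept for every gene from here on. The highest value in each genotype was that of library 2 and the lowest that of library 1, and the genotypes overlapped. Lyz2 alone made up between 29.4% and 39.7% of the summed level of the 35 genes. Divided by exonic length (GENCODE M21), the mean level was 124 CPM per kilobase for Lyz2 and 28.3 for Ctss, cathepsin S, and it was 13.4, 11.9 and 6.00 for C1qb, C1qa and C1qc. Ctss had 23.2, 45.5 and 58.0 CPM in the mutant and 11.4, 54.9 and 37.4 CPM in the wild type. Its lowest library was number 1 in both genotypes, while the highest was number 3 in the mutant and number 2 in the wild type. Mpeg1, a pore-forming protein of phagosomes, had 11.2, 28.4 and 25.2 CPM in the mutant and 8.72, 37.0 and 28.3 CPM in the wild type. Pld4, a lysosomal nuclease, had 0.958, 2.54 and 1.34 CPM in the mutant and 1.03, 2.87 and 0.914 CPM in the wild type. Both were highest in the libraries numbered 2.

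The C1q genes lie next to each other on chromosome 4 (GENCODE M21, the GRCm38 or mm10 build, C1qb at 136880129 to 136886187, C1qc at 136889804 to 136893065 and C1qa at 136895917 to 136898803, all on the minus strand). They encode the A, B and C chains of 1 complement protein and had nearly the same profile. C1qa had 5.38, 23.8 and 6.63 CPM in the mutant and 3.30, 28.7 and 6.33 CPM in the wild type. C1qb stood at 7.44, 27.0 and 8.63 CPM and at 4.18, 32.1 and 8.29 CPM in the same order. C1qc stood at 5.53, 20.9 and 6.63 CPM and at 3.81, 25.5 and 7.17 CPM. For each chain both libraries numbered 2 lay far above the other 4, which stayed between 3.30 and 8.63 CPM.

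**Figure D1:**
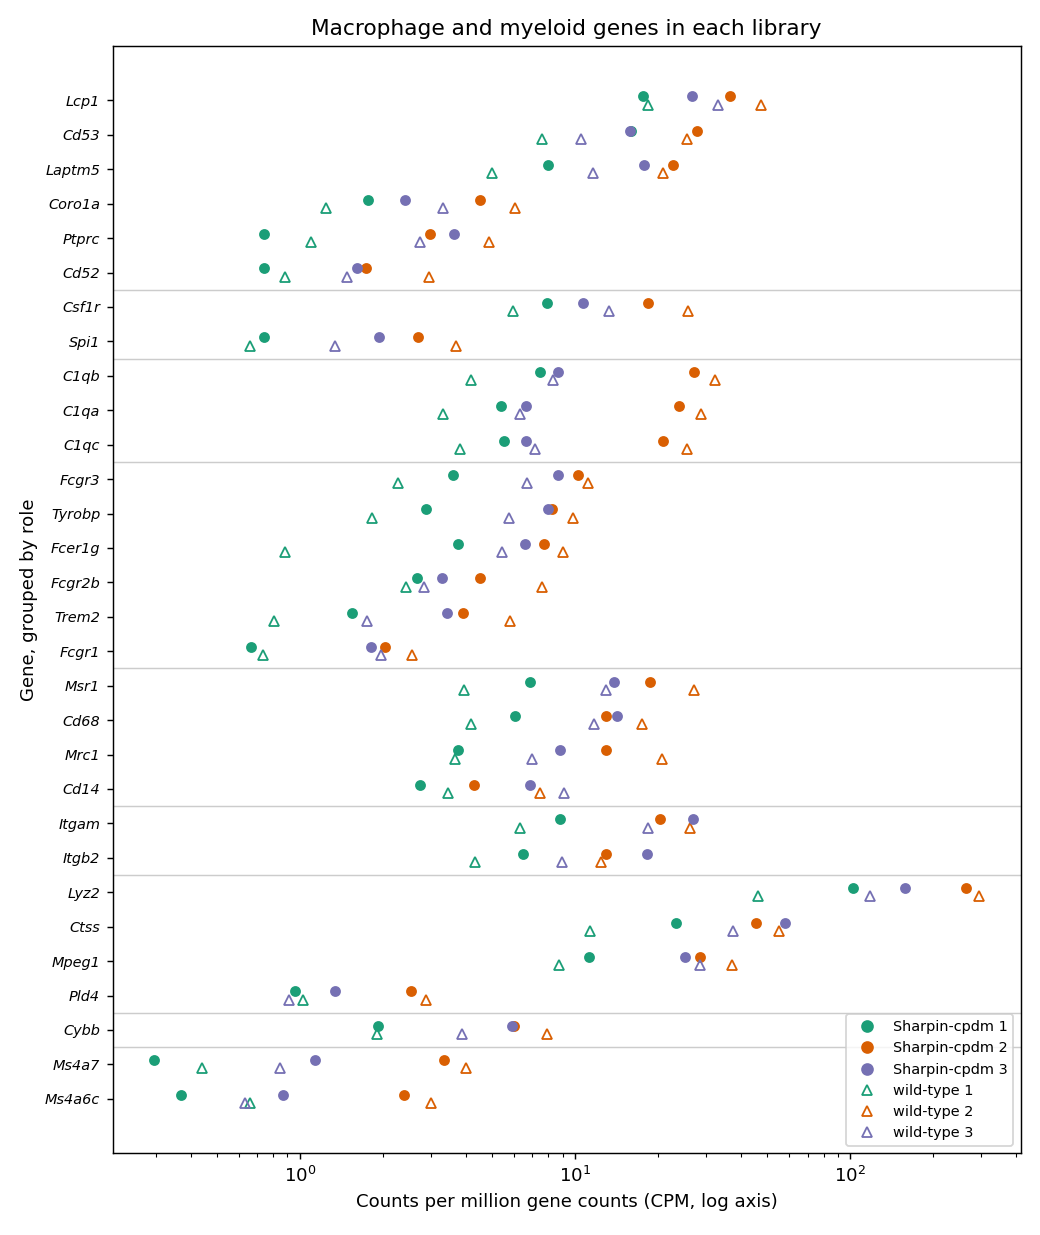
Level of each of the 30 genes with a mean of at least 1 CPM in each library, on a log axis of CPM, with filled circles for Sharpin-cpdm, open triangles for wild-type and a colour for each replicate number. Libraries numbered 1 lie at the left of most rows and those numbered 2 at the right. Circles and triangles of the same colour lie apart for some genes, such as Fcer1g in number 1, at 3.76 and 0.880 CPM.

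The growth factor receptor gene Csf1r and the lineage factor gene Spi1 had the same order of libraries. Csf1r had 7.88, 18.5 and 10.6 CPM in the mutant and 5.94, 25.7 and 13.3 CPM in the wild type. Spi1 stood at 0.737, 2.68 and 1.94 CPM and at 0.660, 3.70 and 1.34 CPM. In both genotypes library 2 was highest and library 1 lowest for both genes.

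Integrin genes of myeloid cells had another order. Itgam, which encodes CD11b, had 8.84, 20.4 and 26.9 CPM in the mutant and 6.30, 26.1 and 18.3 CPM in the wild type. Its partner Itgb2, the beta chain CD18, stood at 6.48, 12.9 and 18.2 CPM and at 4.32, 12.4 and 8.93 CPM. For both genes library 3 was highest in the mutant and library 2 in the wild type, with library 1 lowest in both. The chemokine receptor gene Cx3cr1 had 25 counts in all and reached at most 0.766 CPM.

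Among scavenger and pattern receptors, Cd68, a lysosomal membrane glycoprotein, had 6.04, 13.0 and 14.3 CPM in the mutant and 4.18, 17.4 and 11.7 CPM in the wild type. Mrc1, the mannose receptor, stood at 3.76, 12.9 and 8.84 CPM and at 3.67, 20.7 and 6.96 CPM. Msr1, a scavenger receptor for modified lipoproteins, had 6.85, 18.7 and 13.9 CPM in the mutant and 3.96, 27.0 and 13.0 CPM in the wild type. Mrc1 and Msr1 were highest in library 2 and lowest in library 1 of each genotype, whereas Cd68 was highest in library 3 of the mutant. Cd14, the lipopolysaccharide co-receptor, stood at 2.73, 4.28 and 6.83 CPM and at 3.45, 7.47 and 9.14 CPM, and was the single gene of the 30 with at least 1 CPM whose highest library was number 3 in both genotypes. Cd163, the haemoglobin scavenger receptor of many resident macrophages, had 17 counts over the 6 libraries and none in either library numbered 1.

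Fc receptors and their signalling adaptors were present at a few CPM. Fcer1g, the shared signalling chain of Fc receptors, had 3.76, 7.68 and 6.56 CPM in the mutant and 0.880, 9.07 and 5.41 CPM in the wild type. Tyrobp, the adaptor DAP12, stood at 2.87, 8.26 and 7.97 CPM and at 1.83, 9.84 and 5.76 CPM. Library 2 was highest and library 1 lowest in both genotypes for both adaptors. Fcgr3, an activating Fc receptor, had 3.61, 10.2 and 8.70 CPM in the mutant and 2.27, 11.1 and 6.68 CPM in the wild type. Fcgr2b, the inhibitory one, had 2.65, 4.49 and 3.28 CPM in the mutant and 2.42, 7.60 and 2.81 CPM in the wild type. Fcgr1, the high-affinity receptor, had 0.663, 2.03 and 1.81 CPM in the mutant and 0.733, 2.55 and 1.97 CPM in the wild type. These receptors too were lowest in library 1 and highest in library 2 of each genotype. Trem2, a lipid-sensing receptor that signals through DAP12, had 1.55, 3.91 and 3.41 CPM in the mutant and 0.806, 5.81 and 1.76 CPM in the wild type, again highest in the libraries numbered 2.

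The leukocyte genes that are not limited to macrophages gave the same order of libraries in the main. Ptprc, the leukocyte antigen CD45, had 0.737, 2.97 and 3.61 CPM in the mutant and 1.10, 4.85 and 2.74 CPM in the wild type. Lcp1, the actin bundler L-plastin, stood at 17.6, 36.5 and 26.6 CPM and at 18.4, 47.4 and 33.0 CPM. Cd53, a tetraspanin, stood at 16.0, 27.8 and 15.8 CPM and at 7.55, 25.6 and 10.5 CPM, and Laptm5, a lysosomal membrane protein, at 7.96, 22.8 and 17.8 CPM and at 4.98, 20.9 and 11.6 CPM. Libraries numbered 2 were the highest of their genotype for these genes except Ptprc in the mutant. Coro1a, an actin regulator, had 1.77, 4.49 and 2.41 CPM in the mutant and 1.25, 6.07 and 3.30 CPM in the wild type. Cd52, a small surface glycoprotein, had 0.737, 1.74 and 1.61 CPM in the mutant and 0.88, 2.94 and 1.48 CPM in the wild type. Both kept that order of libraries.

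Among the remaining markers, Cybb, the catalytic subunit of the phagocyte oxidase, had 1.92, 6.02 and 5.89 CPM in the mutant and 1.91, 7.92 and 3.87 CPM in the wild type. Ms4a7, a membrane protein of macrophages, had 0.295, 3.33 and 1.14 CPM in the mutant and 0.44, 4.02 and 0.843 CPM in the wild type, and its relative Ms4a6c had 0.368, 2.39 and 0.87 CPM in the mutant and 0.66, 3.00 and 0.633 CPM in the wild type. All 3 were highest in the libraries numbered 2. Ncf4, an oxidase subunit, Aif1, the actin-binding protein IBA1, and Lyz1, the lysozyme of Paneth cells, had 49, 31 and 24 counts in all and, with Cd163 and Cx3cr1, fell under the low-count filter.

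The sequence of some of these genes limits what their counts can show, since alignments that were not unique were left out. Lyz2 shared 15.4% of the 50-base words of its transcripts with other genes, mainly Lyz1, Fcgr3 shared 9.58%, mainly with Fcgr2b, and Ms4a6c 10.5%, mainly with Ms4a6b. Itgam shared 66.3%, through the gene model Gm49368 that overlaps it on the same strand in GENCODE M21, and Csf1r overlaps 873 exonic bases of Hmgxb3 on the opposite strand. Ms4a6c overlaps 1088 exonic bases of BE692007 on the opposite strand, and Lcp1, Cd52, Fcgr2b, Cx3cr1 and Coro1a have smaller overlaps of that kind. C1qa, C1qb, C1qc and Ctss shared 0%. Levels of Lyz2, Fcgr2b, Fcgr3 and Ms4a6c are therefore less certain, and those of Itgam, Csf1r, Ms4a6c and the other overlapped genes could include or lose reads of the overlapping model.

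The first comparison was that of genotypes, which asks whether cultures from mutant glands held more or less macrophage RNA. None of the 30 tested genes was called in edgeR's quasi-likelihood test without other terms (0% of all 13442 tested genes were called), with 0 of the 30 at an unadjusted p under 0.05, and DESeq2 and limma-voom without the block also called 0 of the 30. Sharpin itself, at a log2 fold change of -1.49 ± 0.14, was not called by that edgeR test either (adjusted p 0.272). It was called by edgeR's test with the replicate number as a block (adjusted p 0.00598). The groups overlapped in CPM for all 35 genes, whereas 5.94% of all tested genes had groups that did not overlap. With the replicate number as a block, edgeR called 0 of the 30 as well, while it called 2.51% of all tested genes, 0.394% higher and 2.11% lower. Their smallest adjusted p was 0.144, that of Cd14, and 5 of the 30 had an unadjusted p under 0.05 (17.3% of all tested genes), while DESeq2 with the block had 3. Without both libraries numbered 1, Lcp1 alone passed with the block (-0.36 on the log2 scale, with edgeR's adjusted p at 0.0333). That is 1 of 32 tested, in a fit that called 653 of all 13605 genes.

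The fold changes of single genes lay on both sides of 0. With the block, 15 of the 30 were above 0 and 15 below, with a median log2 fold change of 0.00107, beside -0.00157 for all tested genes. Without the block, 10 were above 0 and 20 below, with a median of -0.11 beside -0.00263. The lowest was that of Cd14 and the highest that of Itgb2 in both fits. Cd14 had a log2 fold change of -0.55 ± 0.15 (SE, n = 3 per group) with the block, and edgeR gave an adjusted p of 0.144. Itgb2 had 0.54 ± 0.19 with an adjusted p of 0.222, Cd53 0.53 ± 0.17 with 0.192, Laptm5 0.42 ± 0.13 with 0.175 and Lcp1 -0.28 ± 0.08 with 0.149 in the same fit.

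Errors were wide for these genes compared with the rest of the transcriptome. Their median standard error of the log2 fold change was 0.62 without the block and 0.21 with it, beside 0.17 and 0.0836 for all tested genes. Lyz2 averaged 174 ± 81.4 CPM (SD, n = 3) over the mutant libraries and 153 ± 128 CPM over the wild-type ones. Its log2 fold change was 0.17 ± 0.68 without the block and 0.41 ± 0.21 with it (adjusted p 0.387 in edgeR's test). C1qb had -0.06 ± 0.85 without the block and 0.08 ± 0.19 with it, Csf1r -0.29 ± 0.57 and -0.21 ± 0.17, and Cd68 -0.02 ± 0.55 and 0.05 ± 0.18. In the fit without the block the direction turned on single libraries. Without wild-type library 2 the unblocked log2 fold change was 1.22 for C1qb, 0.37 for Csf1r, 0.48 for Cd68 and 0.08 for Lcp1, and without mutant library 2 it was -0.29 for Lyz2. Such fits kept the same-numbered library of the other genotype, so the groups no longer held the same replicate numbers. Within pairs 1, 2 and 3 the log2 ratio of Lcp1 was -0.06, -0.38 and -0.31, below 0 in each. None of these genes passed the threshold in either fit with all libraries kept, and a missed threshold does not show equal levels.

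The 3 pairs differed from each other in the direction of the genotype ratio. The summed level of the 35 genes reached 262 CPM in the mutant against 158 CPM in the wild type in pair 1, a log2 ratio of 0.73. It was 661 and 789 CPM in pair 2, a log2 ratio of -0.26, and 474 and 383 CPM in pair 3, a log2 ratio of 0.31. The mutant library was thus the higher one in pairs 1 and 3 and the lower one in pair 2. Without Lyz2 the ratios were 0.52, -0.31 and 0.26, in the same directions. With 1 library per genotype in a pair, the difference between pairs has no replicate check and was not tested.

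The same held gene by gene. Over the genes with a count in both libraries of a pair, the median log2 ratio was 0.45 in pair 1 (23 of 32 above 0), -0.38 in pair 2 (3 of 35 above 0) and 0.36 in pair 3 (25 of 34 above 0), beside 0.00761, -0.00708 and 0.03 for all genes with a count in both. Of the 32 genes with a ratio in every pair, 16 were higher, lower and higher in the mutant in pairs 1, 2 and 3. Of all genes of at least 1 CPM 12.2% had that sign pattern. The 32 include Lyz1 and Ncf4, with means of 0.271 and 0.557 CPM. Lyz1 is among the 16 with 1 count in each library of pair 1. Lyz2, Ctss, Itgam, Cd68, C1qa and C1qb were among these 16. Laptm5, Cd53 and Itgb2 were higher in the mutant in every pair, and Lcp1, Fcgr1 and Cd14 lower in every pair. These are 3 of 32 each, while 23% of all genes of at least 1 CPM were higher and 18.4% lower in every pair.

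Ratios within pairs spread widely in pair 1, the pair with the lowest levels. Fcer1g had the highest, 2.10 ± 0.46 (log2 ratio ± counting error), Lyz2 had 1.14 ± 0.07, Cd53 1.08 ± 0.17 and Ctss 1.03 ± 0.14, while Lcp1 had -0.06 ± 0.13 and Mrc1 0.04 ± 0.29. In pair 2 the ratio was -0.17 ± 0.03 for Lyz2, -0.48 ± 0.12 for Csf1r, -0.68 ± 0.13 for Mrc1 and 0.12 ± 0.11 for Laptm5. In pair 3 it was 0.42 ± 0.05 for Lyz2, 1.03 ± 0.16 for Itgb2, 0.06 ± 0.18 for C1qb and -0.32 ± 0.16 for Csf1r. These errors cover counting only, since reads without molecular identifiers are not independent molecules.

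**Figure D2:**
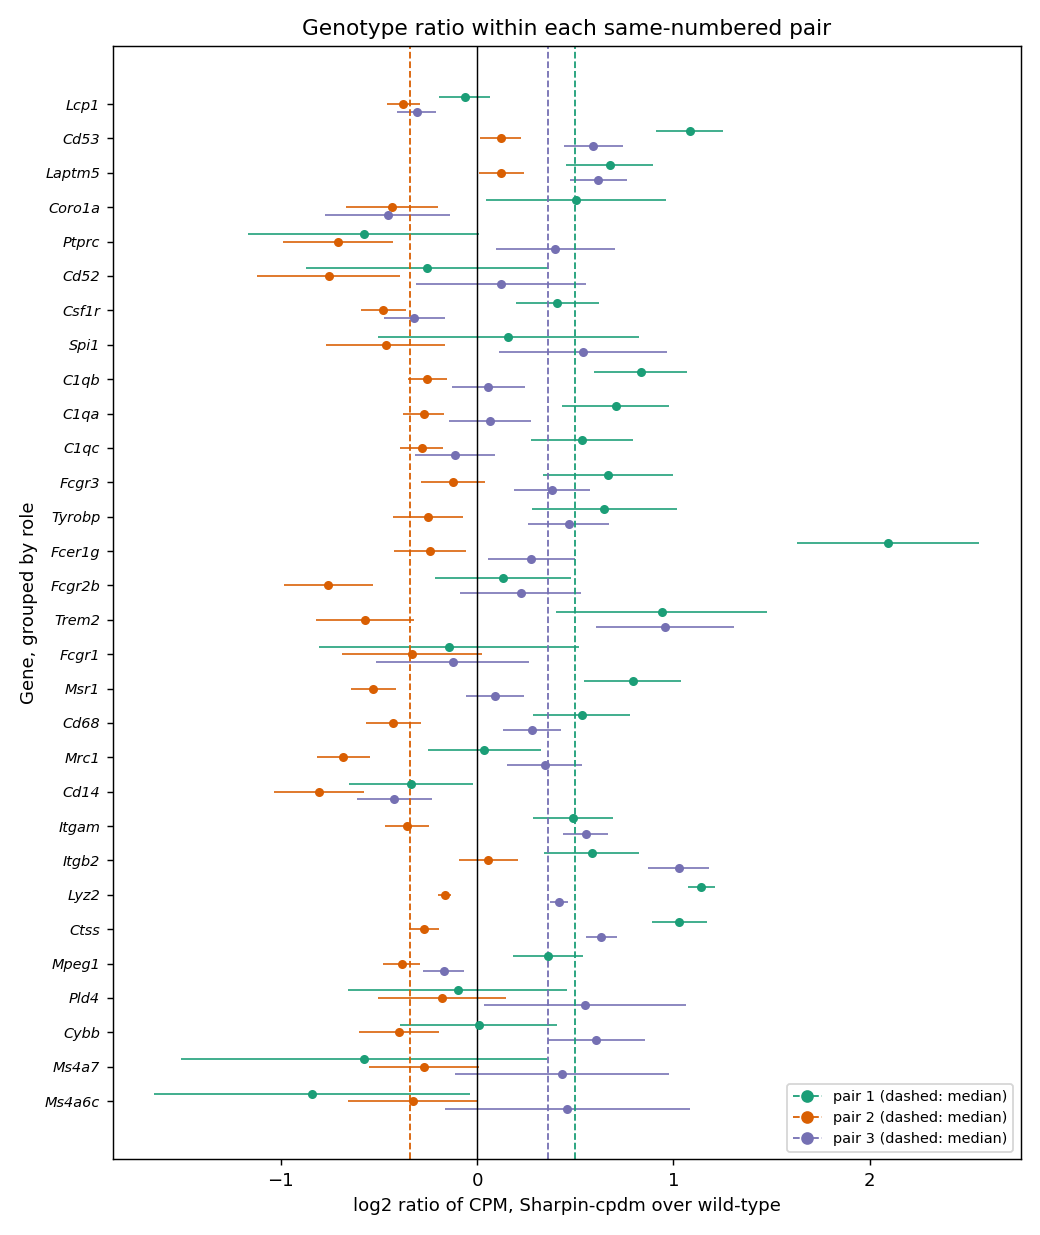
Log2 ratio of CPM, Sharpin-cpdm over wild-type, within pair 1, 2 and 3 for the 30 genes with a mean of at least 1 CPM, with counting errors as bars and the median of each pair as a dashed line. The medians lie at 0.50, -0.34 and 0.36, and most genes of pair 2 lie left of 0.

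The second comparison was between the replicate numbers, with genotype in the model. Each of the 30 tested genes was called (adjusted p between 0.000743 for C1qa and 0.0364 for Fcer1g in edgeR's quasi-likelihood test over the replicate terms), while 37.2% of all tested genes were called. Without the low-count filter 31 of 35 were called, beside 28.5% of 18050 genes, and the likelihood ratio test of DESeq2 called 27 of the 30, beside 21.4%. Without wild-type library 2, 19 of 30 tested were called, beside 1904 of 13594 genes, and without both libraries numbered 2, 15 of 29 were called, beside 943 of 13517 genes. The count was at least 21 without any other library or number. The labels do not say what a number marks, and the match of the libraries by number was taken from the same counts, so this test describes these libraries.

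Number 1 was low and number 2 high in both genotypes. Of the 30 genes with at least 1 CPM, 27 had both libraries numbered 1 below the other 4, as 5.63% of all 13063 genes of that level had, and 24 had both libraries numbered 2 above the other 4, as 17.8% had. All 30 tested genes were called higher in number 2 than in number 1 (11.3% of all tested genes were), with a median log2 fold change of 1.89, between 0.97 ± 0.20 for Cd14 and 3.35 ± 0.37 for Ms4a7. The summed level of the 35 genes was 2.52-fold higher in library 2 than in library 1 in the mutant and 5.01-fold higher in the wild type. No gene of the 35 was called lower in number 2 than in number 1 (10.6% of all tested genes were), lower in number 3 than in number 1 (4.57%) or higher in number 3 than in number 2 (19.2%). None of the 30 genes of at least 1 CPM had both libraries numbered 1 above the other 4 (9.72% of all genes of that level), both numbered 2 below them (29.8%), or both numbered 3 above (20.2%) or below them (16%). These contrasts between single numbers were added after the values had been seen.

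Number 3 divided the genes. Of the 30, 14 were called higher in number 3 than in number 1 (6.67% of all tested genes were) and 16 were called lower in number 3 than in number 2 (19.6% were), with 3 genes, Laptm5, Lcp1 and Msr1, in both counts. For 13 genes the call was against number 2 alone. They included C1qa, C1qb and C1qc, at -2.08 ± 0.21, -1.86 ± 0.22 and -1.81 ± 0.19 between numbers 3 and 2, and Ms4a7, Ms4a6c, Pld4, Csf1r, Spi1, Mrc1, Cd53, Coro1a, Fcgr2b and Lyz2. Between numbers 3 and 1 the C1q genes had log2 fold changes of 0.55 to 0.58, with adjusted p of 0.151 to 0.212 in edgeR's test.

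For 11 genes the call was against number 1 alone. Itgam had a log2 fold change of 1.58 ± 0.23 between numbers 3 and 1 and of -0.12 ± 0.21 between numbers 3 and 2 (adjusted p 0.0134 and 0.684 in edgeR's test). Itgb2 had 1.30 ± 0.24 and -0.02 ± 0.22, Ctss 1.47 ± 0.27 and -0.18 ± 0.25, and Cd14 1.37 ± 0.19 and 0.40 ± 0.18. Ptprc, Cd68, Tyrobp, Fcgr1, Fcgr3, Mpeg1 and Cybb made up the rest, and Cd52, Fcer1g and Trem2 were called in neither contrast. Whether the first set of genes differs from the second was not tested, and the PU box shown above stands in promoters of both (C1qb and Cd53, Itgam and Ctss). Genes of both sets also lacked it, such as Lyz2 in the first and Mpeg1 in the second.

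**Figure D3:**
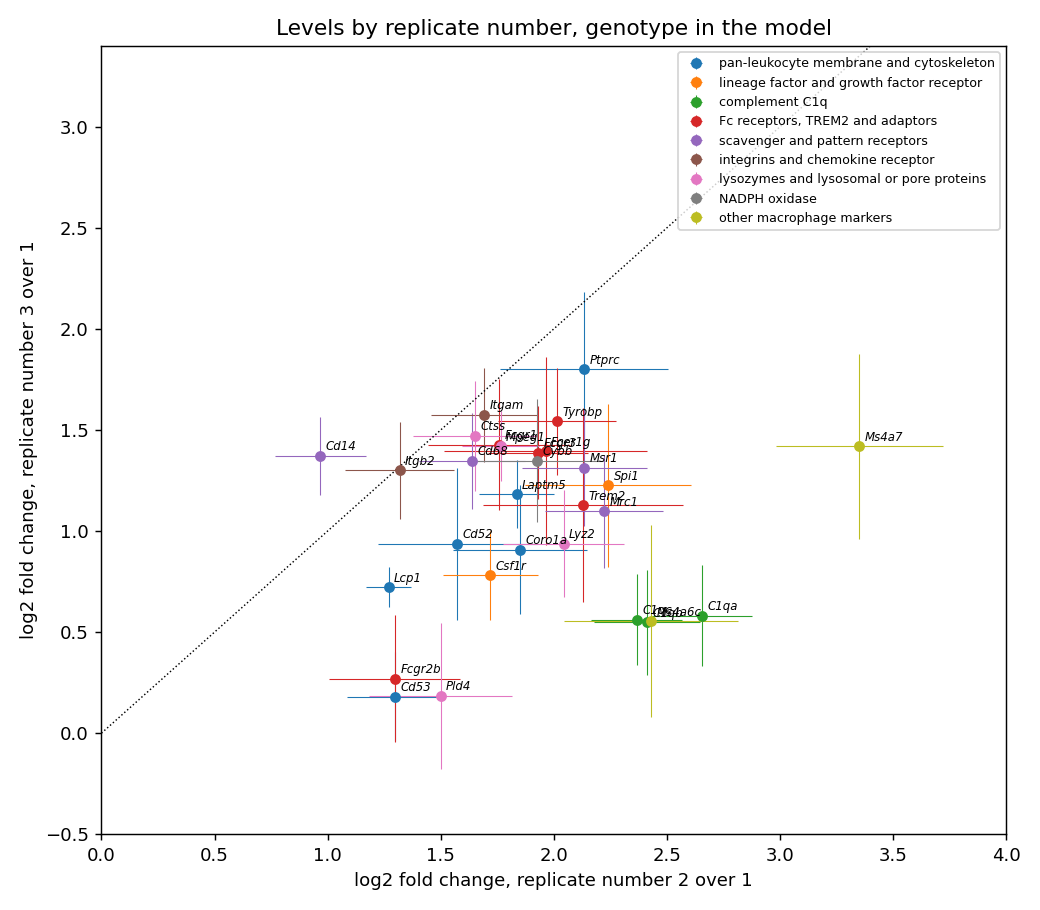
Log2 fold change between replicate numbers 2 and 1 (horizontal) and 3 and 1 (vertical) for the 30 tested genes, with standard errors as bars, a colour for each role and a dotted line where both are equal. C1q genes and Ms4a6c lie low at the right, with values near 2.4 to 2.7 and 0.55 to 0.58, Cd14 lies above the line and Itgb2 close to it.

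Genes outside the 35 and outside all other lists used here were ranked by their likeness to the 35, among 12927 genes. Likeness was the correlation of log2 CPM over the 6 libraries with the mean of the 30. Listed genes, among them Emr1 and other macrophage genes, were not ranked. The highest values were those of Ywhaq (r = 0.999), a signalling adaptor found in most cells that moved only between 36.2 and 42.5 CPM, Hpgds (r = 0.991), the haematopoietic prostaglandin D synthase, at 0.367 to 2.04 CPM, Tmem107 (r = 0.991), Gm11428 (r = 0.989) at 3.81 to 20.3 CPM, and Fermt3 (r = 0.986), the kindlin of blood cells, at 1.32 to 4.47 CPM. With 6 libraries that share their pairs and many genes, such values are a description only.

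Other macrophage genes, from a list of 59 of which 46 were tested, resembled the 35 in the contrast of numbers 2 and 1 but not in their summed level. Between replicate numbers 37 of 46 were called, beside 37.2% of all tested genes. In number 2, 32 were called higher and 2 lower than in number 1, beside 11.3% and 10.6% of all tested genes. Between genotypes 0 were called without the block (0% of all tested genes were). With it Irf8, a transcription factor of monocytes and dendritic cells, was called alone, at a log2 fold change of -0.81 ± 0.14 (adjusted p 0.044 in edgeR's test). That is 1 of 46, while 2.11% of all tested genes were called lower in that fit. The summed level of the 56 genes in the tables was 414, 534 and 1000 CPM in the mutant and 394, 623 and 883 CPM in the wild type, highest in number 3, where the 35 genes were not. Gene by gene, the median log2 fold change between numbers 3 and 2 was -0.27 over the 46 tested. Of these, 8 were called lower and 5 higher in number 3 than in number 2, beside 19.6% and 19.2% of all tested genes. Gpnmb, a lysosomal glycoprotein that is not limited to macrophages, had the highest CPM of this list, with 93.4, 89.4 and 298 CPM in the mutant and 94.3, 83.9 and 342 CPM in the wild type. Mmp12, Ccl6 and Sirpa added 165, 139 and 127 CPM to the sum of mutant library 3. To that of wild-type library 3 they added 79.5, 82.7 and 133 CPM, so the sums rested largely on these abundant genes. Emr1, which encodes the macrophage antigen F4/80, was higher in number 2 than in number 1 by 2.24 on the log2 scale and in number 3 than in number 1 by 1.26. Gpnmb, Mmp12, Ccl6, Sirpa and Emr1 were named after their values were seen. Of 16 listed genes of macrophage activation 7 were tested. Between genotypes 0 were called in either fit, beside 0% of all tested genes without the block and 2.51% with it. Between numbers 5 were called, beside 37.2%. The highest mean CPM was that of Il1rn, the interleukin 1 receptor antagonist, at 18.3 CPM, followed by Arg1, arginase 1, at 12.2 CPM.

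Ligands that feed or attract macrophages were partly well expressed and partly near the limit of counting. The growth factor gene Csf2 had a mean of 0.187 CPM, and Csf3, another colony stimulating factor, was at 0 counts in mutant library 3. Csf2 and Csf3 were named after their values were seen. Of 14 listed, 11 were tested. Between genotypes 0 were called in either fit, beside 0% of all tested genes without the block and 2.51% with it. Between numbers 10 were called, beside 37.2%. Csf1, the ligand of CSF1R, had 686, 1166 and 610 CPM in the mutant and 660, 1064 and 626 CPM in the wild type, highest in both libraries numbered 2, where Csf1r was highest too. Of all genes of at least 1 CPM, 17.8% had both libraries numbered 2 above the other 4. The lowest libraries differed, number 3 for Csf1 and number 1 for Csf1r in both genotypes. A link between them was not tested. Spp1, osteopontin, ranged from 424 to 1390 CPM. Cx3cl1, the ligand of CX3CR1, was named after its values were seen and stood at 30.8, 100.2 and 18.01 CPM and at 30.1, 88.8 and 23.2 CPM. Its order differed from that of Itgam and Ctss, with number 3 the lowest in both genotypes.

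Genes of antigen presentation and markers of other blood cells were scarce. The 7 genes of antigen presentation on MHC class II summed to 8.72 to 14.4 CPM, with Cd74 at 1.55 to 4.28 CPM. Of them, 0 of 5 tested genes were called in any comparison, while 37.2% of all tested genes were called between numbers. The 9 dendritic cell genes summed to 8.93 to 13.8 CPM, of which Zbtb46, at a mean of 6.89 CPM, made up the most, Cd209a and Siglech had 0 counts, and 1 of 2 tested genes was called between numbers. The 9 neutrophil genes in the tables summed to at most 2.11 CPM, with Elane, Retnlg and Cxcr2 at 0 counts, and the 7 B cell genes to at most 0.535 CPM, and 0 genes of either list passed the low-count filter. The 12 T and NK cell genes summed to 3.17 to 4.64 CPM, most of it Lck and Klrb1c, with Cd3e at 1 count and Gzma and Klrd1 at 0. A count of 0 limits these transcripts only at this depth.

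Mast cell genes had their highest levels in number 3. The 11 genes of mast cells and eosinophils in the tables summed to 6.19, 3.55 and 18.9 CPM in the mutant and to 8.06, 8.75 and 28.7 CPM in the wild type. The mast cell proteases Cpa3, Mcpt4, Cma1 and Tpsb2 were tested. All 4 were called higher in number 3 than in number 1 (6.67% of all tested genes were) and than in number 2 (19.2%). Between genotypes 0 of the 4 were called in either fit, beside 0% of all tested genes without the block and 2.51% with it. Among the macrophage genes Cd14 was highest in number 3 in both genotypes as well, and Itgam, Itgb2 and Ctss in the mutant, whereas the C1q genes were highest in number 2. The difference between mast cell and macrophage genes was not tested.

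**Figure D4:**
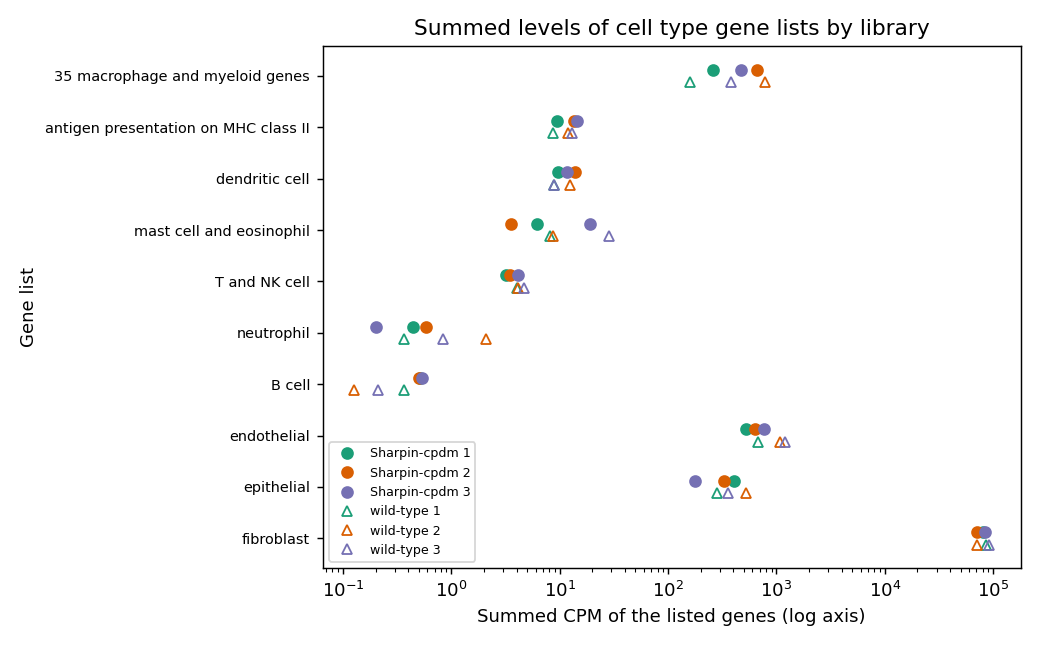
Summed CPM of each gene list in each library on a log axis, with filled circles for Sharpin-cpdm, open triangles for wild-type and a colour for each replicate number. The 35 macrophage and myeloid genes lie between 158 and 789 CPM, below the fibroblast list at 71139 to 91002 CPM. They lie above the lists of antigen presentation and of other blood cells, which stay at or below 28.7 CPM.

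Other cell types of the gland also varied between libraries. The 12 endothelial markers summed to 528 to 769 CPM in Sharpin-cpdm and to 678 to 1191 CPM in wild-type libraries. With the block 9 of 12 were called lower in the mutant (2.11% of all tested genes were). In number 2, 9 were called higher than in number 1 (11.3%). The 8 epithelial markers summed to 178 to 525 CPM with 0 called between genotypes and 2 between numbers. Of the 12 fibroblast markers 3 were called lower in the mutant with the block and 9 were called between numbers. Of all tested genes 37.2% were called between numbers and 2.51% between genotypes with the block. The part of these cell types in the differences between numbers was not tested.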

How the data were processed

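RNA from 6 culture samples was sequenced after TruSeq RNA v2 library preparation, per the labels' protocols. The submitters' processing notes name TopHat2 (2.0.10), HTSeq (0.5.4p3), bcl2fastq (1.8.4) and the mm10 build. Which step each tool served, the annotation and the strand setting are not given in the sources used here. Values deposited by the authors are whole-number counts per gene symbol. Their 5 summary rows, between 48.8% and 51.2% of all entries, were left out. CPM is a count scaled to 1000000 gene counts of its library.

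Tests used R 4.3.3 and edgeR 4.0.16: filterByExpr left 13442 genes, libraries were scaled by TMM, and quasi-likelihood F-tests, two-sided for fold changes, were adjusted by Benjamini-Hochberg over all tested genes at a threshold of 0.05, within each contrast. Standard errors were derived from each fold change and its F value. Genotype was tested without a block; blocked fits, limma 3.58.1, DESeq2 1.42.0, other scalings, no filter and left-out libraries were alternatives. Replicate numbers were tested with genotype in the model. The labels give 3 pooled mice per sample but do not say how the cultures were set up, so p-values measure only the spread between these samples, which may be technical.

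Deviations of log2 CPM (prior count 2) from group means correlated across genes at 0.457, 0.809 and 0.737 for same-numbered libraries and at 0.00677 or below for other combinations; the numbers were therefore taken as pairs, a choice made on the counts because no label states it. No 2 libraries of a group agreed within sampling noise (chi-square per degree of freedom at least 16.9). On counts simulated for 13442 genes, genotype changes of 1.5-, 2- and 4-fold were recovered for 0 of 67, 29 of 67 and 61 of 66 genes without the block and for 50 of 67, 61 of 67 and 64 of 66 with it. Between numbers they were recovered for 49 of 67, 62 of 67 and 65 of 66. Unchanged genes were called 0 times without the block, 6 times with it and 3 times between numbers. The simulated spread between numbers was smaller than that of the 30 tested genes, whose median log2 fold change between numbers 2 and 1 was 1.89. The recovered shares therefore do not apply to those 30 genes, whose errors were wider.

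The 35 genes and the other lists were chosen with earlier results of these data known. All 35 are named, with values in every library for those with a mean of at least 1 CPM; in other lists, genes called with the block or else the most abundant 2 were the rule, applied where a result turns on them, and others are marked as named after their values were seen. Likeness used log2 of CPM + 0.1.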

Additional observations from a re-analysis of the deposited data

How the results depend on the processing

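Calls among the 35 genes between genotypes stayed at 0 under the alternatives run without the block, with the block and other scalings, and with limma-voom and DESeq2; in fits with the block that left out 1 replicate number they were between 0 and 1. Over all tested genes the count was 0 without the block and 337 with the replicate block, 336 and 365 with the block and DESeq2 size factors or total counts, 10 with DESeq2, 341 with DESeq2 and the replicate block, and 44 to 653 with the block and 1 number left out (128 without number 2). Between replicate numbers 4999 genes were called, 2870 by DESeq2, 943 to 6092 without 1 number and 1904 to 6073 without 1 library; among the 35 genes these left-out fits called 15 to 31. The unblocked log2 fold change of C1qb, -0.06, turned to 0.081 with the replicate block, 0.085 and 0.091 with the block and DESeq2 size factors or total counts, 0.16 with DESeq2 and the block, 0.13 with limma-voom, and 0.38 and 0.093 with the block and without number 2 or 3. That of Cd68, -0.02, turned to 0.048, 0.051, 0.061, 0.092 and 0.099 under the first 5 of these and to 0.35 with the block and without number 2. With 1 library left out and no block, values lay between -0.94 and 1.22 for C1qb, -0.42 and 0.48 for Cd68, -0.29 and 1.09 for Lyz2, -0.74 and 0.37 for Csf1r, -0.62 and 0.075 for Lcp1, and -0.025 and 0.97 for Laptm5. With 1 library left out and no block, the groups no longer held the same replicate numbers. The cause was not tested. The block changed no call among the 35 genes with all libraries kept. Depth limits genes under 1 CPM, 5 of which were not tested.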
